A study of Canis lupus familiaris with 34 samples.

Results

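The 10 genes described here are 4 vascular endothelial growth factors (VEGFA, VEGFB, VEGFC and VEGFD), the 3 VEGF receptors (FLT1, KDR and FLT4) and 3 genes used to mark lymphatic endothelium (PROX1, PDPN and LYVE1), measured in mitral valves of Cavalier King Charles Spaniels. They were found by symbol among 23768 listed features, and where a gene was listed as a canine RefSeq feature and as a human alignment, the canine feature was used. All 10 were present, and all 10 passed the minimum of 100 counts over the dogs that 19568 features passed.

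The dogs were privately owned and about 10 years old, and all were of the same breed. The labels give no genotype for single dogs. The 10y-noCHF group held 19 dogs (10 females and 9 males) without congestive heart failure (CHF). Nearly all of them had myxomatous mitral valve disease (MMVD) that had not led to CHF, and the paper describes the disease as severe in several. The 10y-MMVD-CHF group held 15 dogs (6 females and 9 males) with CHF caused by MMVD, whose diagnosis rested in part on a response to diuretics. RNA came from whole excised valves after euthanasia, and stage, exact age and medication of a single dog are not paired with the libraries. Total counts per dog ranged from 46185256 to 82361245.

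VEGFA, VEGFB, VEGFC and VEGFD are secreted ligands of receptor tyrosine kinases on endothelial cells. VEGFA signals through KDR (VEGFR2) to drive blood vessel growth and permeability, while FLT1 (VEGFR1) binds VEGFA and VEGFB and in large part acts as a decoy. VEGFC and VEGFD activate FLT4 (VEGFR3), the main growth signal of lymphatic vessels, and PROX1 is the transcription factor that sets lymphatic endothelial identity. PDPN (podoplanin) and LYVE1, a hyaluronan receptor, are surface proteins of lymphatic endothelium. None of these markers is exclusive to it: PROX1 is also made in heart muscle cells, LYVE1 in tissue-resident macrophages, PDPN in several stromal and myeloid cells, and VEGFA in heart muscle.

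In the canFam4 assembly, the exon features of VEGFA lie on chromosome 12 from 12398450 to 12413970, those of KDR on chromosome 13 from 48206380 to 48248022, and those of PDPN on chromosome 2 from 83039674 to 83068230. The other 7 members were counted over a single unbroken span of the aligned human gene, introns included. VEGFB spans 53328784 to 53332440 on chromosome 18, VEGFC 53925244 to 54029831 on chromosome 16, and VEGFD 11634523 to 11671599 on chromosome X. FLT1 spans 11290443 to 11468704 on chromosome 25, FLT4 1405692 to 1445215 on chromosome 11, PROX1 11857759 to 11911995 on chromosome 7, and LYVE1 34316961 to 34328046 on chromosome 21. VEGFD is the only member that overlaps another listed feature: 100% of its span lies inside the readthrough feature PIR-FIGF on the same strand. VEGFD had 1789 counts over all dogs and PIR-FIGF 58181, and a read on VEGFD was also counted on PIR-FIGF.

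No member passed the test for a difference between dogs with and without CHF. With edgeR's quasi-likelihood test and sex as a fixed effect, 0 of 10 members had a false discovery rate (FDR) below 0.1, where 0.118% of all features tested did (23 of 19568). DESeq2 and limma voom also called 0 members, and DESeq2 called 0.327% of all features. At an unadjusted edgeR p below 0.05 there were 0 members and 6.31% of all features. The estimates were 5 above and 5 below no change, from a log2 fold change of -0.32 in KDR to 0.16 in FLT1, with a median of -0.01 beside 0.01 over all features tested. A p that misses the threshold does not show equal levels, so each difference is given with its 95% interval. In whole tissue, fewer cells of a type and less RNA per cell cannot be told apart.

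**Figure D1:**
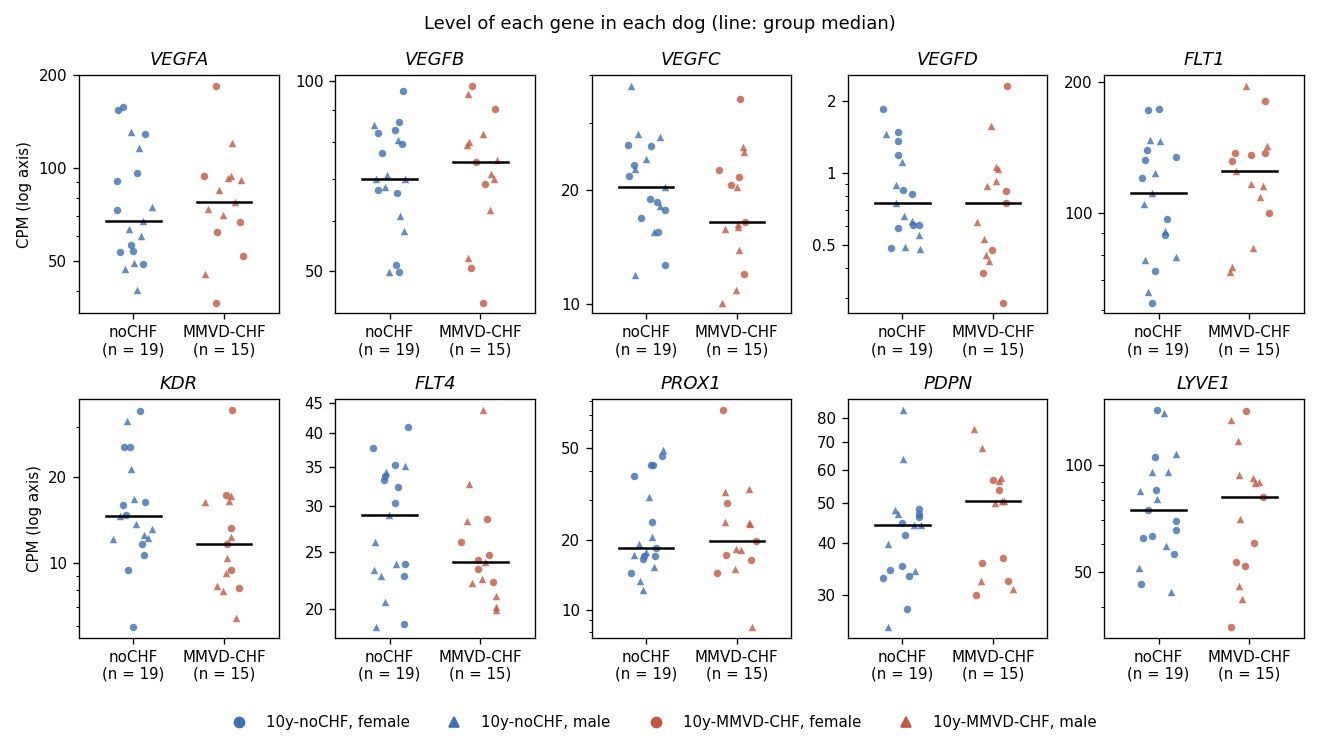
Level of each of the 10 genes in each dog, in CPM (counts scaled to library size) on a log axis, for 19 dogs without CHF (blue) and 15 dogs with CHF (red), with circles for females, triangles for males and a black line at the group median. The groups overlap in every panel, and a single female with CHF lies at the top for VEGFA, VEGFB, VEGFD, KDR and PROX1.

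Levels are given as CPM, counts scaled with edgeR's TMM factors to a common library size, and compare dogs for a given gene. VEGFA ranged in 10y-MMVD-CHF from 36.6 CPM over a median of 77.2 to 184.8 CPM, and in 10y-noCHF from 40.2 over 67.5 to 158.1 CPM. The ranges overlapped almost wholly, with 2 of 15 dogs with CHF outside the range of the others. The difference was 0.05 on the log2 scale (95% interval -0.37 to 0.47, edgeR FDR = 0.986), and the interval spans folds from 0.774 to 1.38.

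VEGFB varied least of the 10, with an SD of 19.9% of its mean. It ranged from 44.5 over a median of 74.3 to 98.3 CPM with CHF and from 49.7 over 69.9 to 96.3 CPM without. This gave the narrowest interval among the members, a fold of 1.03 (0.891 to 1.19, edgeR FDR = 0.972).

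The ligands of the lymphatic receptor were lower in estimate with CHF. VEGFC ranged from 10.1 over 16.4 to 34.7 CPM with CHF and from 11.9 over 20.3 to 37.6 CPM without. Of the 15 dogs with CHF, 6 were above the 10y-noCHF median, the ranges overlapped over most of their length, and the log2 fold change was -0.17 (95% interval -0.49 to 0.14, edgeR FDR = 0.916). VEGFD was scarce, with 19 to 108 counts per dog. It ranged from 0.288 over 0.747 to 2.31 CPM with CHF and from 0.482 over 0.746 to 1.84 CPM without, and the medians were almost the same. The log2 fold change of VEGFD was -0.05 with a wide interval of -0.57 to 0.47 (edgeR FDR = 0.989).

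FLT1, the decoy-like receptor, had medians of 124.7 CPM with CHF (73.3 to 196.4) and 111.1 CPM without (62.2 to 173.1). Its log2 fold change of 0.16 was the highest among the members (95% interval -0.13 to 0.45, edgeR FDR = 0.914). The 2 groups lay side by side over nearly the whole range, and 10 of 15 dogs with CHF were above the 10y-noCHF median.

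KDR, the main signalling receptor of VEGFA, had the lowest estimate. It ranged from 6.41 over 11.6 to 34.4 CPM with CHF and from 5.94 over 14.6 to 34.3 CPM without. Of the 15 dogs with CHF, 5 were above the 10y-noCHF median, among them the highest dog of all, the female CAV1047. The log2 fold change was -0.32 (95% interval -0.76 to 0.11, edgeR p = 0.138, FDR = 0.853), and permuting CHF labels within each sex gave p = 0.138 (two-sided permutation test, 100000 resamples). Without CAV1047, the highest dog with CHF, it was -0.51 (edgeR p = 0.0167, FDR = 0.593). This p was the smallest among the 34 fits that each omit 1 dog. The largest, edgeR p = 0.286, came from omitting CAV865 (log2 fold change -0.22). With the mean level of heart muscle markers as a covariate, the log2 fold change was -0.40 (edgeR p = 0.0286, FDR = 0.596). KDR thus stayed below no change in each of these fits and passed the FDR threshold in none of them.

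FLT4, the receptor for VEGFC and VEGFD, showed the most uneven split around a median. Levels ranged from 19.9 over 24.1 to 43.7 CPM with CHF and from 18.7 over 28.9 to 40.8 CPM without, and only 2 of the 15 dogs with CHF lay above the 10y-noCHF median. One of these, the male CAV1097, was the highest of all 34. The log2 fold change was -0.14 (95% interval -0.37 to 0.09, edgeR p = 0.234, FDR = 0.903). Without CAV1097 it was -0.21, and the edgeR p of 0.0434 was the smallest among the fits that each omit 1 dog. The lowest FDR among these fits was 0.658. Their largest edgeR p was 0.355, without CAV285 (log2 fold change -0.11). The 10y-noCHF dogs covered the range from the lowest dog of all to nearly the highest.

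Among the lymphatic markers, PROX1 varied most, with an SD of 54.5% of its mean and an 8.73-fold range. It ranged from 8.40 over 19.8 to 73.3 CPM with CHF and from 12.2 over 18.5 to 49.2 CPM without. The groups overlapped and the log2 fold change was 0.02 (95% interval -0.45 to 0.49, edgeR FDR = 0.994). Its sign turned with upper-quartile normalization (-0.0049), without the sex term (-0.026) and without CAV1047 (-0.21), so no direction can be given for PROX1.

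PDPN ranged from 30.03 over 50.5 to 75.3 CPM with CHF and from 25.1 over 44.1 to 83.4 CPM without. No dog with CHF lay outside the range of the others, and the log2 fold change was 0.10 (95% interval -0.17 to 0.37, edgeR FDR = 0.953). LYVE1 ranged from 35.03 over 81.2 to 141.9 CPM with CHF and from 43.9 over 74.7 to 143.0 CPM without. Its log2 fold change was -0.04 (95% interval -0.41 to 0.33, edgeR FDR = 0.988), and the medians and the fitted difference point in opposite directions.

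Levels of different genes can be compared only per length, and only for the 3 members counted over exons. In RPKM, the CPM divided by the exon length in kilobases, PDPN had 33.3 ± 9.99 (SD, n = 34), VEGFA 29.3 ± 12.8 and KDR 3.71 ± 1.80. KDR was the lowest of these in 34 of 34 dogs. PDPN exceeded VEGFA in 24 of 34 dogs, so their order differed between dogs.

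**Figure D2:**
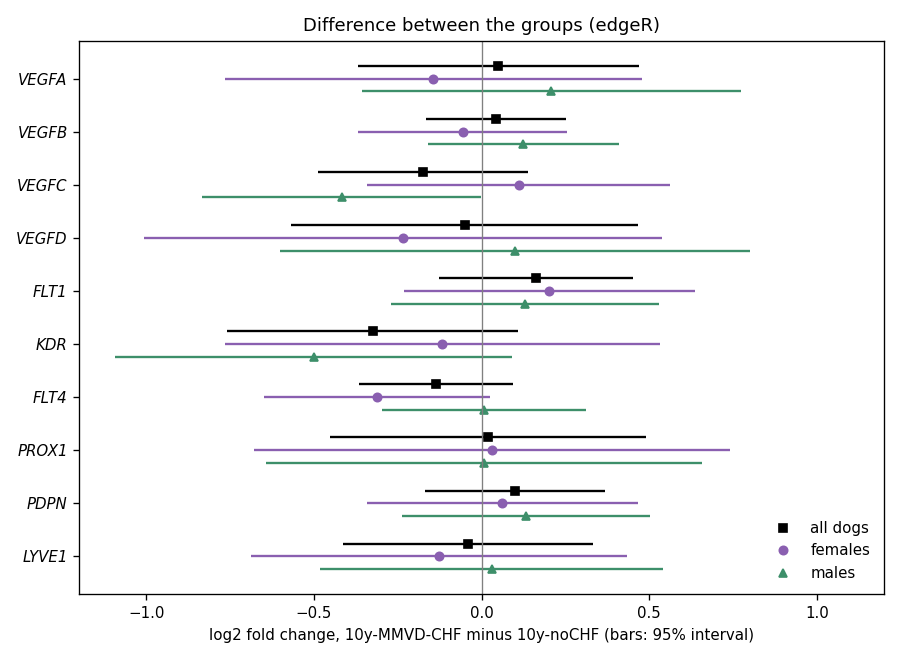
Log2 fold change between 10y-MMVD-CHF and 10y-noCHF for each gene (edgeR), for all dogs (black squares), females (purple circles) and males (green triangles), with bars for the 95% interval. In all dogs every interval includes 0, as it does within each sex except for VEGFC in males (-0.42), with KDR at -0.32 and FLT1 at 0.16 as the extremes.

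The effect of CHF was also compared between females and males. The interaction of CHF and sex was called for 0 of 10 members with edgeR, as for 0% of all features, and for 0 members with DESeq2, which called 0.0153% of all features. At an unadjusted p below 0.05 there were 0 members and 6.02% of all features. The smallest p belonged to VEGFC, with a log2 fold change of 0.11 in females and -0.42 in males (edgeR interaction p = 0.0886, FDR = 0.839). Within males the unadjusted edgeR p was 0.0488 for VEGFC and 0.0949 for KDR in this fit, and 0.0632 and 0.037 when males were fitted alone, so neither lay below 0.05 in both fits. FLT4 had -0.31 in females and 0.0067 in males (edgeR interaction p = 0.160). For these lymphatic-pathway genes the lower estimate with CHF came from different sexes, but the difference between the sexes did not pass the test in either.

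Between males and females, 0 members passed the FDR threshold with edgeR or DESeq2, where 0.143% and 0.189% of all features did. At an unadjusted p below 0.05 there was 1 member, PDPN, and 2.98% of all features. PDPN was higher in males by 0.32 on the log2 scale (standard error 0.132, edgeR p = 0.0219, FDR = 1.0).

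Other genes of the pathway were counted in the same fit from lists of known genes. Of 12 further VEGF ligands, co-receptors and processing factors, 0 passed in either direction, and EPHB4, a receptor of vein and lymphatic endothelium, had the smallest p (log2 fold change 0.18, edgeR p = 0.0255, FDR = 0.732). The placental growth factor PGF had -0.32 (p = 0.0782), the semaphorin receptor PLXND1 -0.11 and ADAMTS3, the protease that activates VEGFC together with CCBE1, -0.18. CCBE1 itself had 0.01, and the co-receptors NRP1 and NRP2 -0.02 and 0.02. The list as a whole centred on no change, with a median of -0.01.

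Downstream of the receptors, 0 of 20 signalling genes passed with edgeR or DESeq2. The calcineurin-regulated transcription factor NFATC1 had a log2 fold change of -0.31 (edgeR p = 0.00376, FDR = 0.446), and the calcineurin regulator RCAN1, on the list of 11 tested VEGF-responsive endothelial genes, had -0.31 as well (edgeR p = 0.00378, FDR = 0.446). NFATC1 had 93.8 ± 16.6 CPM (SD, n = 15) with CHF and 116.3 ± 25.6 CPM (SD, n = 19) without, and RCAN1 111.8 ± 19.1 and 138.2 ± 29.7 CPM. The kinases PIK3CA, SRC and MAPK3 had 0.14, 0.10 and 0.11. Of the VEGF-responsive genes, 0 passed, and NID2, EGR3 and APLNR had -0.31, -0.29 and 0.23.

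Of 19 genes of oxygen sensing and hypoxia response, of which VEGFA is a classical target, 0 passed. An estimate above no change was found for 16 of them, with a median of 0.11. Over all features tested, 10295 of 19568 were above no change, with a median of 0.01. A shift of the list as a whole was not tested. Carbonic anhydrase CA9 had 0.99 (edgeR p = 0.0179, FDR = 0.662), the mitophagy receptor BNIP3 0.27 (edgeR p = 0.0211, FDR = 0.691), ANKRD37 0.32 and HIF1A 0.11. VEGFA itself, at 0.05, lay below the median of this list.

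Among 15 further genes of lymphatic endothelial identity, 0 passed with edgeR, and 1 with DESeq2. This was the peptide gene NTS, with 0.379 ± 0.33 CPM (SD, n = 15) with CHF and 1.31 ± 1.08 CPM (SD, n = 19) without (log2 fold change -1.78, edgeR FDR = 0.369, DESeq2 FDR = 0.0637). NTS is a gene that the study itself reported from these dogs, so its direction is not independent evidence. The guidance factor SEMA3D had 16.9 ± 6.84 and 25.2 ± 8.55 CPM (log2 fold change -0.57, edgeR p = 0.00331, FDR = 0.438), ITGA9 had 0.20 and SOX18 0.48. The median of the list was -0.04.

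The lymphatic chemokine CCL21 and the endothelial protein MMRN1 varied more between dogs than any member. CCL21 ranged from 0.0516 over a median of 13.4 to 44.0 CPM over the 34 dogs, and MMRN1 from 0.0258 over 15.5 to 58.7 CPM. The same 10y-noCHF dog, CAV749, was lowest in both and the same dog, CAV494, highest in both. The next lowest dogs had 2.62 CPM of CCL21 (CAV579) and 3.30 CPM of MMRN1 (CAV1041), so the low ends rested on CAV749. Across dogs CCL21 and MMRN1 moved together, with Spearman's rho of 0.870. Neither passed the test between the groups (CCL21 log2 fold change 0.05, MMRN1 0.39, edgeR p = 0.905 and 0.345). CAV749 still had 47.1 CPM of VEGFA, 12.2 CPM of PROX1, 23.9 CPM of FLT4, 59.1 CPM of LYVE1 and 46.9 CPM of PDPN. In this 1 library these genes were counted while CCL21 and MMRN1 were almost absent, and the cells they came from were not tested. PROX1, FLT4 and LYVE1 were counted over spans with introns. FLT4 in CAV749 was near its median of 24.5 CPM over the 34 dogs, and PROX1 was the lowest of the 10y-noCHF dogs.

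The valve is a mixed tissue, and the members were therefore set beside marker genes of the cell types it can hold. The summed level of 19 heart muscle (cardiomyocyte) markers ranged from 81.0 to 58253 CPM in 10y-MMVD-CHF and from 57.4 to 27842 CPM in 10y-noCHF. The sum of 15 endothelial markers ranged from 911 to 2136 and from 679 to 1382 CPM, that of 14 macrophage markers from 870 to 2235 and from 783 to 2289 CPM, and no gene of these lists was at 0 in all dogs of a group. Of all marker genes, only VWF, the clotting factor carrier of endothelium, passed with edgeR, at 204.9 ± 125.3 CPM (SD, n = 15) with CHF and 79.6 ± 50.4 CPM (SD, n = 19) without (log2 fold change 1.404, FDR = 0.0678). Like NTS, VWF is a gene that the study itself reported from these dogs, so its direction is not independent evidence. The other 14 endothelial markers did not pass, among them TEK at 0.28 and ECSCR at -0.27. In the remaining lists 0 genes passed. The genes with the smallest p were MYL2 at -2.47 for heart muscle, CD14 at 0.45 for macrophages and DCN at -0.23 for valve interstitial cells. For pericytes and smooth muscle they were MYH11 at -0.67 and RGS5 at 0.58. For mesothelium, adipocytes and red blood cells they were CALB2 at -0.88, CIDEA at -1.13 and ALAS2 at 0.88. MYL2 went against its list, in which 17 of 19 genes had an estimate above no change, with a median of 0.20. Over all features tested, 10295 of 19568 were above no change. MYL2 had 5.58 ± 8.38 CPM (SD, n = 15) with CHF and 38.3 ± 123.9 CPM (SD, n = 19) without. Its highest dog had 537.9 CPM, beside a median of 1.27 CPM over all dogs. The part of cell content in the differences between the groups was not tested beyond the covariate fits given here.

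Relations were measured across the 34 dogs on log2 CPM, for 10 members with 7 marker means, and group and sex means were taken out of every value first. Of these 70 relations, 23 passed an adjusted p below 0.1 with Spearman's rho, 17 positive and 6 negative, and 29 passed with Pearson's r. P-values are from two-sided permutation tests with 100000 resamples, of which 1e-05 is the smallest they can give, and adjustment is over the 70 relations. All relations share the libraries and their scaling, and in a mixed tissue a larger share of RNA from one cell type lowers the CPM of the rest, which was not corrected.

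**Figure D3:**
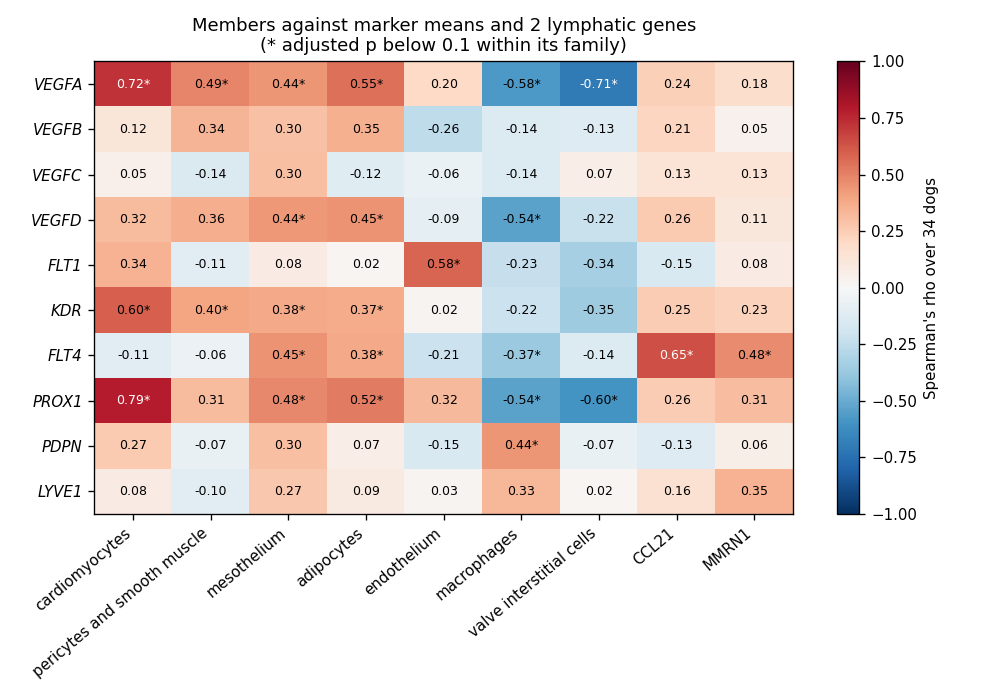
Spearman's rho over 34 dogs between each gene (rows) and the mean log2 CPM of 7 marker lists, or CCL21 and MMRN1 (columns), with group and sex means taken out and an asterisk at an adjusted p below 0.1. PROX1 and VEGFA are reddest with heart muscle, FLT1 with endothelium, FLT4 with CCL21 and PDPN with macrophages.

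PROX1, the lymphatic transcription factor, rose with the heart muscle markers, with the highest rho among the 70 relations. Pearson's r was 0.734 and rho 0.786 (permutation p = 1e-05 for each, adjusted p = 0.000233 and 0.000467), and r was 0.709 when the 2 dogs with the most extreme marker means were left out. The relation held within dogs with CHF (r = 0.780) and without (r = 0.713). All 19 muscle markers had a positive rho with PROX1 one by one, from 0.518 for MYL2 to 0.839 for the calcium channel RYR2. PROX1 also rose with the markers of adipocytes (rho = 0.520, adjusted p = 0.0132) and mesothelium (rho = 0.483, adjusted p = 0.0220) and fell with those of valve interstitial cells (rho = -0.597, adjusted p = 0.0042) and macrophages (rho = -0.538, adjusted p = 0.00931). None of these 4 passed with the muscle mean also removed. With the endothelial mean PROX1 had a rho of 0.324 and did not pass (adjusted p = 0.140).

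VEGFA followed heart muscle as well, with r of 0.656 and rho of 0.724 (permutation p = 6e-05 and 2e-05, adjusted p = 0.00098 and 0.000467) and r of 0.716 without the 2 most extreme dogs. The r was 0.425 in dogs with CHF and 0.785 in dogs without, and the difference was not tested. VEGFA fell as valve interstitial cell markers rose (r = -0.721, rho = -0.709, adjusted p = 0.000233 and 0.000467) and as macrophage markers rose (rho = -0.577, adjusted p = 0.0042). These held with the muscle mean also removed, an analysis chosen after seeing the data, at rho of -0.496 and -0.464 (adjusted p = 0.0301 and 0.0452). VEGFA also rose with adipocyte (rho = 0.553), pericyte and smooth muscle (0.492) and mesothelial markers (0.443), and none of these passed with the muscle mean removed.

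The 3 receptors of endothelial cells had different leading relations. FLT1 followed the endothelial mean, with r of 0.683 and rho of 0.584 (permutation p = 1e-05 and 0.00038, adjusted p = 0.000233 and 0.0042) and r of 0.620 without the 2 most extreme dogs. In dogs without CHF r was 0.855 and rho 0.872, and in dogs with CHF r was 0.453 and rho 0.05, a difference that was not tested. Among the 15 single markers, 14 had a positive rho with FLT1, with a median of 0.427 and a range from -0.271 for SOX17 to 0.848 for CDH5, the adhesion protein of endothelial junctions.

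No relation of KDR with the endothelial mean was detected, with r of 0.044 and rho of 0.025 (permutation p = 0.802 and 0.888). With the 15 endothelial markers one by one it had a positive rho with 5 and a negative rho with 10, from -0.454 for ROBO4 to 0.555 for CLDN5. It rose instead with heart muscle markers, with r of 0.546 and rho of 0.598 (permutation p = 0.00092 and 0.0003, adjusted p = 0.00716 and 0.0042), and r was 0.578 without the 2 most extreme dogs. Within the groups r was 0.677 with CHF and 0.535 without. KDR also passed with pericyte and smooth muscle (rho = 0.397), mesothelial (0.377) and adipocyte markers (0.374), and with none of these once the muscle mean was removed. The second KDR feature, counted over the whole gene span, gave values close to these, at rho of 0.037 with endothelium and 0.611 with heart muscle.

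No relation of FLT4 with the endothelial mean passed either (rho = -0.213, adjusted p = 0.370), and 12 of 15 endothelial markers had a negative rho with it. Among the marker means, CCL21 and MMRN1, its rho was highest with CCL21. In a separate set of 20 relations, of the 10 members with CCL21 and with MMRN1, chosen after the spread of those genes was seen, 2 passed with Spearman's rho and both were those of FLT4. With CCL21, r was 0.501 and rho 0.647 (permutation p = 0.00307 and 6e-05, adjusted p = 0.0614 and 0.0012), r was 0.639 without the 2 most extreme dogs, and within the groups r was 0.627 with CHF and 0.498 without. With MMRN1, rho was 0.476 (adjusted p = 0.0498) and r 0.393 (adjusted p = 0.232), so this relation passed by rank only, and it did not pass when group and sex means were kept.

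None of the 3 other lymphatic markers passed with CCL21 or MMRN1. With CCL21, rho was 0.256 for PROX1, -0.131 for PDPN and 0.156 for LYVE1, and with MMRN1 it was 0.308, 0.062 and 0.346. FLT4 also rose with the mesothelial markers (r = 0.458, rho = 0.453, adjusted p = 0.0249 and 0.0365), whose summed level was only 2.45 to 10.9 CPM from 4 tested genes. It passed as well with adipocyte (rho = 0.376) and macrophage markers (rho = -0.373), each at an adjusted p of 0.0937. Within dogs with CHF, rho of FLT4 was 0.16 with mesothelial, -0.19 with adipocyte and -0.05 with macrophage markers. Within dogs without CHF it was 0.59, 0.58 and -0.5. Whether these relations depend on CHF status was not tested. With the muscle mean also removed, FLT4 had rho of 0.646 with mesothelial markers (adjusted p = 0.0015) and 0.556 with adipocyte markers (adjusted p = 0.0129). It was then -0.545 with macrophage markers (adjusted p = 0.0131), 0.657 with CCL21 (adjusted p = 0.0012) and 0.537 with MMRN1 (adjusted p = 0.0123).

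**Figure D4:**
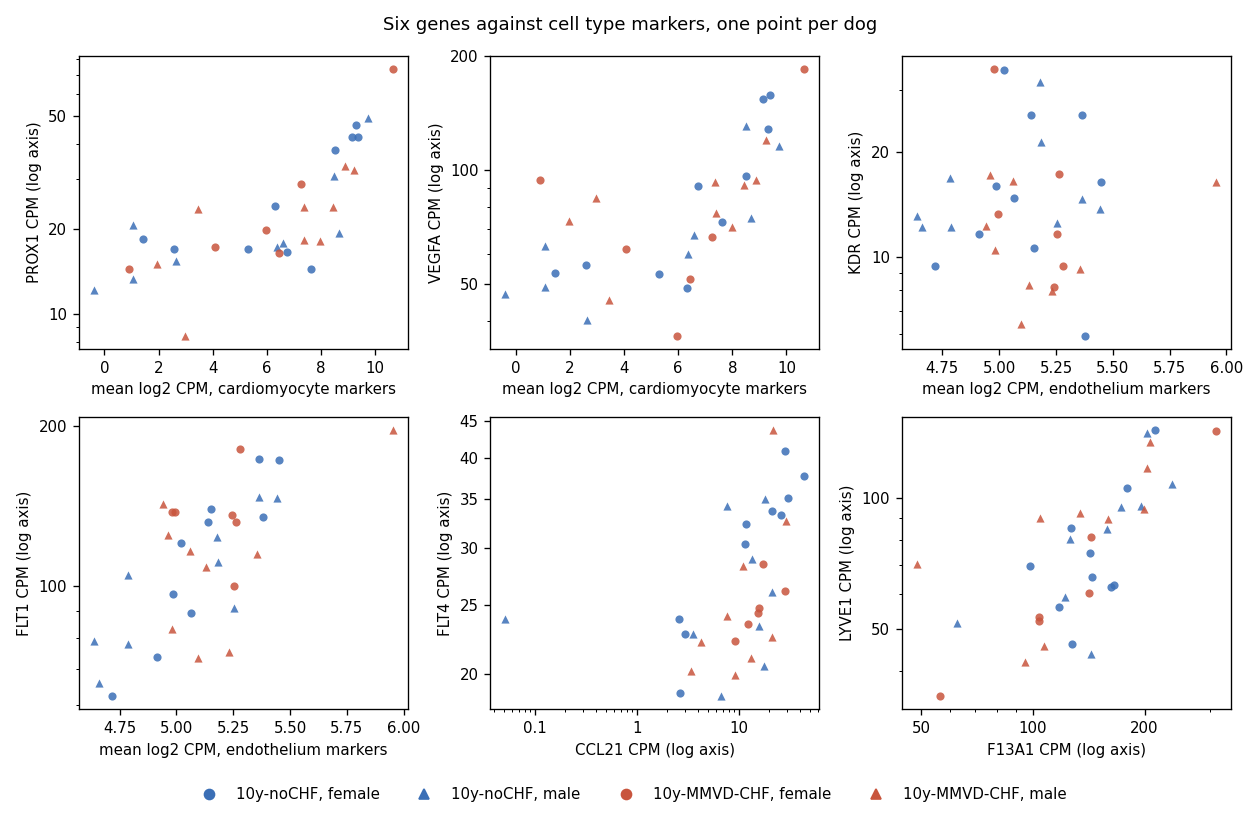
Level of a gene (CPM, log axis) against a marker mean (mean log2 CPM) or a single gene (CPM, log axis), with 1 point per dog, blue for 10y-noCHF and red for 10y-MMVD-CHF. PROX1 and VEGFA climb with heart muscle markers, FLT1 but not KDR climbs with endothelial markers, FLT4 is high where CCL21 is high, and LYVE1 climbs with F13A1 (rho = 0.778).

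PDPN and LYVE1, the surface markers, had their leading relations with macrophage genes. PDPN rose with the macrophage mean at rho of 0.443 and r of 0.401 (permutation p = 0.0096 and 0.019, adjusted p = 0.0395 and 0.0580), and r was 0.342 without the 2 most extreme dogs. With the muscle mean also removed, rho was 0.696 (adjusted p = 0.0015). LYVE1 had rho of 0.329 and r of 0.395 with the macrophage mean (adjusted p = 0.136 and 0.0586), and so passed with Pearson's r only. Its rho with MMRN1 was 0.346, which did not pass either. Within the macrophage list, LYVE1 ranged from a rho of -0.060 with CD14 over a median of 0.187 to 0.778 with F13A1. F13A1 is itself 1 of the 14 genes of the mean.

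VEGFD fell as macrophage markers rose (r = -0.628, rho = -0.537, permutation p = 9e-05 and 0.00133, adjusted p = 0.00105 and 0.00931), with r of -0.568 without the 2 most extreme dogs. It also rose with adipocyte (rho = 0.452) and mesothelial markers (rho = 0.435), at adjusted p of 0.0365 and 0.0418. With the muscle mean also removed, neither of these passed (adjusted p = 0.138 for each), while the relation with macrophage markers did (rho = -0.529, adjusted p = 0.0141). VEGFB and VEGFC passed with none of the 7 marker means by Spearman's rho.

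Each member was also compared with 16171 features of at least 1 CPM on average, and the 3 closest by Spearman's rho over the 34 dogs are given as a description. PROX1 was closest to ABLIM1 (0.899), LOC101929141 (0.884) and ADGRL3 (0.880), and VEGFA to PLPP7 (0.891), MDH2 (0.883) and DOK7 (0.882). FLT1 was closest to ADGRF5 (0.860), CDH5 (0.848) and SHROOM4 (0.841), of which CDH5 defines endothelium. KDR was closest to UTRN (0.853), AMER1 (0.845) and ATP8A2 (0.839), none of them an endothelial marker of the list used.

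LYVE1 was closest to F13A1 (0.778), the coagulation factor subunit made by resident macrophages, then to PDCD1LG2 (0.719) and CCL14 (0.6999). PDPN was closest to the scavenger receptor gene CD163 (0.729), a macrophage marker, to CD163L1 (0.728) and to CREG1 (0.713). CD163 and CD163L1 had counts correlated at 0.9997 across dogs and are best read as a single measurement. The closest features of VEGFB were MIF-AS1 and MIF (0.843 each, with equal counts in 28 of 34 dogs) and LOC407835 (0.826).

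FLT4 was closest to SAMD13 (0.749), SV2A (0.744) and EPHX2 (0.714), VEGFC to PCSK6 (0.713), MUSK (0.6996) and STK35 (0.677), and VEGFD to BHLHB9 (0.710), EPB41L4B (0.708) and C17orf113 (0.676).

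Of the 45 pairs of members, 7 passed an adjusted p below 0.1 with Spearman's rho, all of them positive, and 8 passed with Pearson's r. The closest pair was KDR with PROX1 (r = 0.740, rho = 0.610, permutation p = 1e-05 and 0.00019, adjusted p = 0.0003 and 0.00653), and r was 0.645 without the 2 most extreme dogs. VEGFA rose with PROX1 (rho = 0.589) and with its receptor KDR (rho = 0.553), at adjusted p of 0.00653 and 0.0106. All 3 genes follow heart muscle markers. With the muscle mean also removed, KDR and PROX1 still had a rho of 0.643 (adjusted p = 0.00315), VEGFA and PROX1 0.451 and VEGFA and KDR 0.435 (adjusted p = 0.0677 for each).

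PDPN and LYVE1 rose together (r = 0.515, rho = 0.550, permutation p = 0.00186 and 0.00091, adjusted p = 0.0167 and 0.0106), and r was 0.591 without the 2 most extreme dogs. FLT1 with PROX1 (rho = 0.522), VEGFD with PROX1 (rho = 0.443) and FLT1 with KDR (rho = 0.432) also passed, at adjusted p of 0.0165, 0.0665 and 0.0739. With the muscle mean also removed, both pairs of FLT1 lost their call, with rho of 0.313 for PROX1 (adjusted p = 0.210) and 0.243 for KDR (adjusted p = 0.343), while VEGFD with PROX1 had 0.453 (adjusted p = 0.0677) and PDPN with LYVE1 0.548 (adjusted p = 0.0227). FLT4 passed with no other member, its ligands VEGFC and VEGFD included. The 4 lymphatic genes FLT4, PROX1, PDPN and LYVE1 thus form 6 pairs, of which only PDPN with LYVE1 passed.

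**Figure D5:**
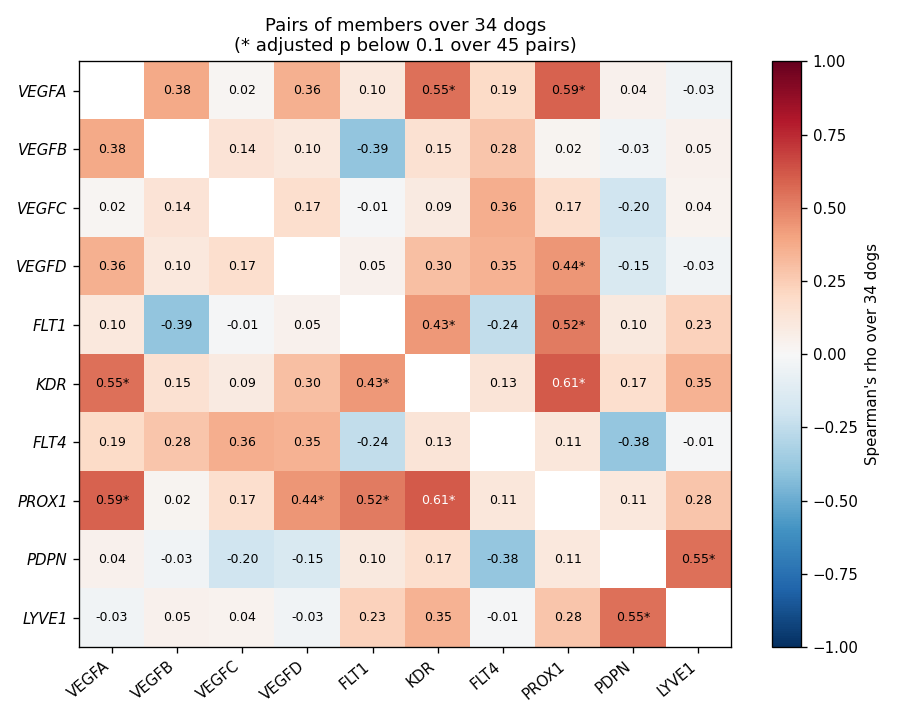
Spearman's rho over 34 dogs for each pair of the 10 genes, with group and sex means taken out and an asterisk at an adjusted p below 0.1 over 45 pairs. KDR, PROX1 and VEGFA form a positive group, PDPN and LYVE1 a separate pair, and the FLT4 row holds no asterisk.

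CAV1047, a female with CHF, was the highest of all dogs in VEGFA (184.8 CPM), VEGFB (98.3), VEGFD (2.31), KDR (34.4) and PROX1 (73.3). It also had the highest mean log2 level of heart muscle markers, 10.7, where the lowest dog, CAV749, had -0.39. CAV1047 was not highest in FLT1 (137.8 CPM), FLT4 (28.5), LYVE1 (53.3) or PDPN (36.9). Leaving it out moved the log2 fold change of VEGFA from 0.05 to -0.11 and that of VEGFD from -0.05 to -0.28, and neither passed the FDR threshold.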

How the data were processed

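Mitral valve RNA (polyA, paired-end) of 34 dogs was analysed, with groups and sexes from the labels. The authors mapped reads to canFam4 (UU_Cfam_GSD_1.0) with STAR, whose version is not given in the sources used here, and deposited raw counts made with featureCounts 2.0.3. The recorded command gives a read to every feature it overlaps, is set to no strand, and takes the 2 reads of a pair as separate counts. 71.0% of all non-zero counts in the tested set were even, so reads are not independent molecules. Of 35 count columns, 1 belonged to no sample and was not used. Of the XenoRefSeq features (human genes aligned to the dog genome), 94.9% are a single span with introns, so the planned RPKM was computed only for members with exon features.

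The 19568 features that reached 100 counts in total were tested with edgeR 4.0.16 in R 4.3.3 (quasi-likelihood, TMM, sex as fixed effect, Benjamini-Hochberg FDR threshold 0.1 over all features). Standard errors are approximate, since they come from the F statistic. Log2 CPM used a prior count of 2. Alternatives were DESeq2 1.42.0 (the study's tool), limma 3.58.1 voom with sample weights, RLE and upper-quartile normalization, filterByExpr, no filter, no sex term, a heart muscle or endothelial marker mean as covariate, the second feature of a member, FDR 0.05, each sex alone and each dog left out. Chosen after seeing the data were leaving out CAV614 and CAV1047 together, removing the muscle mean from relations, and the relations with CCL21 and MMRN1. The members and the gene lists were chosen with earlier results of these data known. The genes named are the members, of each list the genes past the threshold or up to 4 with the smallest p, and the 3 features closest to each member, with NRP1, NRP2, CCBE1, CCL21 and MMRN1 added after their values were seen. Nothing in the sources says whether libraries were prepared in batches.

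The edgeR fit was tested on simulated data for the comparison of CHF with noCHF over 19448 features, of which 200 were changed. It recovered 90% of those changed by a log2 fold of 1 and 97% of those changed by 2, and 9.22% of its calls were false. Smaller changes were not simulated, so these shares do not apply to differences of the size estimated for the members, from -0.32 to 0.16. All members but VEGFD had at least 392 counts in each dog. Correlations and permutations were run in Python with numpy 2.4.6 and scipy 1.17.1.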

Additional observations from a re-analysis of the deposited data

How the results depend on the processing

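The count of members called for CHF, 0, was the same under every alternative run and with each of the 34 dogs left out in turn. The counts for the interaction and for sex, also 0, were rerun with DESeq2 and RLE normalization only and were the same. Most estimates of the members are near 0, and signs turned for 7 of them, none past the FDR threshold. With females alone VEGFA had a log2 fold change of -0.14, VEGFB -0.055 and VEGFC 0.11. With males alone VEGFD had 0.10, FLT4 0.0067 and LYVE1 0.030. Without CAV614 and CAV1047 VEGFA had -0.11, VEGFB -0.012, PROX1 -0.19 and LYVE1 0.013. With limma voom VEGFB had -0.023, PROX1 -0.016 and LYVE1 0.046. PROX1 also had -0.0049 with upper-quartile normalization, -0.026 without the sex term, -0.088 with the muscle covariate and -0.018 with the endothelial covariate. With single dogs left out the log2 fold change ranged from -0.11 to 0.13 for VEGFA, from -0.28 to 0.038 for VEGFD, from -0.21 to 0.15 for PROX1 and from -0.17 to 0.027 for LYVE1. KDR and FLT4 kept a negative sign with every dog left out, from -0.51 to -0.22 and from -0.21 to -0.11. At an unadjusted p below 0.05, 1 member appeared with the muscle covariate, with males alone and without CAV614 and CAV1047 (KDR, p = 0.0286, 0.037 and 0.0284), and 1 with females alone (FLT4, p = 0.0417). The share of all features below 0.05 in these fits is not given here, and in the main fit it was 6.31%, so these counts do not single out the members. Over all lists, 1 gene passed with edgeR and 2 with DESeq2 (VWF and NTS). Of the relations with marker means, 23 passed, and 8 when the muscle mean was also removed, which leaves fewer relations to test. The cause of these changes was not tested. No paired analysis was possible because the numbers of the replicates are those of single dogs and no number is shared between groups. VEGFD, at 19 to 108 counts per dog, is the member that depth limits.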
